A study of Medicago ruthenica with 9 samples.

Results

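Leaves of drought-stressed Medicago ruthenica, a perennial forage legume, were compared with leaves collected after water had been given again, to find which miRNAs differed within 2 days of recovery. The comparison used 6 of the 9 small RNA libraries of the study, 3 per group, chosen by their treatment, with each miRNA name taken once (595 names). All plants were 4 weeks old when treatments began and were grown without added nutrients. Water was withheld from the drought-stressed plants (DS) for 15 days, and they were collected when the relative soil moisture had fallen to 20%. Rewatered plants (RW) went through the same 15 days, were watered to saturation and were collected 2 days later, so rewatering and 2 days of growth cannot be told apart. Control plants (CK), watered every 3 days at a soil moisture above 80%, entered the fit for the spread and are given for their level only. Each group had 3 biological replicates, but the sources used here do not say whether 1 library holds 1 plant or several. The tissue label could not be checked, since a table of miRNAs holds no marker genes of leaf cells.

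Plant miRNAs are short RNAs cut from a folded precursor by a Dicer-like enzyme. One strand, the guide, is loaded into an Argonaute protein and directs the cutting or the translational repression of mRNAs that pair with it, while the opposite strand, the star, is mostly degraded. Many conserved families silence transcription factors of development, and others follow the supply of copper, phosphate or sulfate or keep the genes of disease resistance low. Small RNAs of 24 nt are typically siRNAs that guide DNA methylation at repeats.

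Of 339 miRNAs that could be tested, 8 passed an adjusted p of 0.05 in RW vs. DS (2.36%). Of these, 5 were higher in RW (1.47%) and 3 were lower (0.885%). The log2 fold change was positive for 199 of the 339 (58.7%). This excess lay among low miRNAs: of the 179 with a mean under 20, 120 were positive and 57 negative. Of the 186 above 0 in all 6 libraries, 91 were positive and 95 negative. The sequences of the 8 are printed 5′ to 3′ as deposited, in the DNA alphabet, because the names alone do not show how they relate to each other, and the capitals mark the seed, bases 2 to 8. The 5 higher in RW were
mtr-miR5754: tATTGCACtcatcttccatggc
gma-MIR10405a-p5_2ss8AT21TG: cTTATAATaaggaccggagggagt
mtr-MIR2610a-p3_1ss9AC: cGAAAGTGcaatcatgtagggc
mtr-MIR5230-p3_2ss7TG19AG: aTGGTTGAagatattggagac
mtr-miR166a_R+4: tCGGACCAggcttcattcccctgga
and the 3 lower in RW were
mtr-MIR156e-p3: tTGTGCTCtctatgcttctgtc
mtr-miR5559-5p: tACTTGGTgaattgttggatc
PC-3p-54_81480: cGGGATCGgagattagagaat
No 2 of the 8 shared a seed. In the names, _R+4 marks 4 extra bases at the 3′ end, _2ss8AT21TG marks 2 substitutions with their positions, MIR with p3 or p5 marks an arm predicted from a known precursor, and PC marks a predicted miRNA with no match to a known one. The prefix gives the species of the matching entry, mtr for Medicago truncatula and gma for soybean.

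The calls rested on all 3 RW libraries and on the CK libraries' share in the estimate of the spread. Without RW replicate 1 no miRNA passed (0 calls in limma, 45 at an unadjusted p under 0.05), nor without RW replicate 2 (0 calls, 35 at an unadjusted p under 0.05), nor with only the DS and RW libraries fitted (0 calls, 33 at an unadjusted p under 0.05). There were 4 calls without RW replicate 3, 14 without DS replicate 1 and 5 without DS replicate 3. Without the mean-variance trend 6 miRNAs passed, all higher in RW, and 4 of them were among the 8. That fit lost the 3 lower calls, PC-3p-54_81480, mtr-MIR156e-p3 and mtr-miR5559-5p, and also mtr-miR166a_R+4 (adjusted p = 0.123, 0.0658, 0.0936 and 0.0513). The 8 miRNAs kept their direction in all of these fits. Their RW and DS values did not overlap, so leaving out a library could not have turned a sign. The fits without the trend or without CK leave the fold change as it was. The split of 5 higher and 3 lower became 5 and 1 with values scaled to the table's total and 16 and 0 with upper-quartile scaling, which moved the median log2 fold change of all tested miRNAs from 0.16 to 0.76. The methods' test, with unequal variances and an unadjusted p under 0.05, called 21 miRNAs, 16 higher and 5 lower in RW, and 4 of these were among the 8.

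Each value is a normalized count, that is, a read count times a factor the authors set for the library. The listed total ranged from 1279156 to 1490572 over the DS libraries and from 1253105 to 1718279 over the RW libraries. Above 0, the lowest value was 3.94, 4.21 and 4.17 in DS replicates 1 to 3 and 2.3, 2.66 and 3.09 in RW, near 5 reads in each, so the DS libraries were the shallower and a miRNA listed at 0 in DS may have had a level that RW would list. In leaf RNA, fewer cells of a type and less miRNA per cell cannot be told apart.

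**Figure D1:**
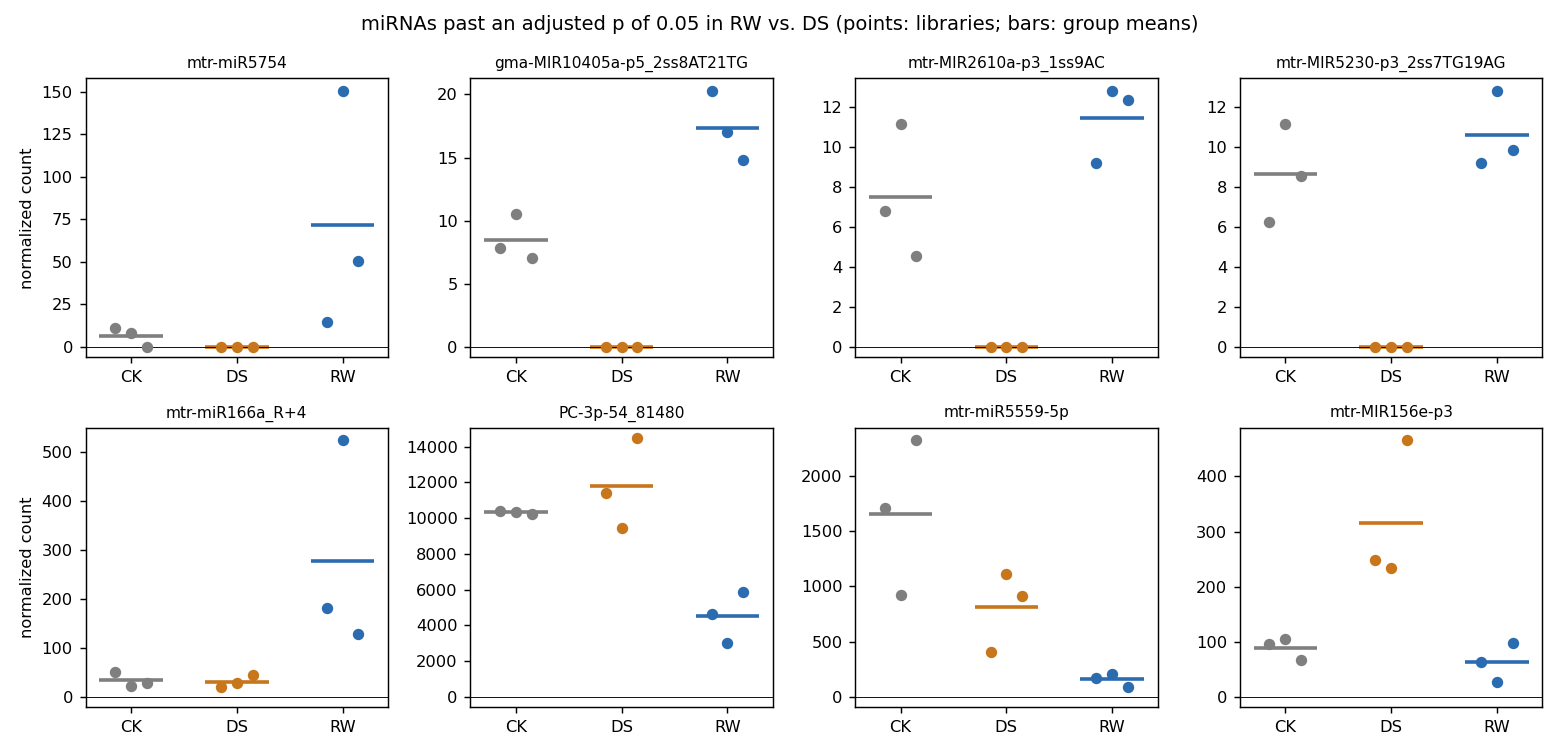
Normalized counts (vertical axis, linear) of the 8 miRNAs past an adjusted p of 0.05, in CK, DS and RW, with 1 point per library and a bar at the group mean. The 3 RW values lie apart from the 3 DS values in all 8 panels, and 4 miRNAs are listed at 0 in all DS libraries.

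mtr-miR166a_R+4 was higher in RW. The miR166 family silences HD-ZIP III transcription factors, which set the upper and lower sides of the leaf. The extended form stood at 18.9, 27 and 43.7 in DS replicates 1 to 3 and at 182, 523 and 128 in RW, with 49.8, 22 and 27.9 in CK. All RW libraries were above all DS and CK libraries, with RW replicate 2 the highest (log2 fold change 2.99 ± 0.57 (SE), adjusted p = 0.0175, limma). The first 21 bases are those of mtr-miR166a, the most abundant miRNA of the leaves, which shares the seed and did not pass: 612996, 866868 and 827481 in DS and 744954, 1164300.0 and 727018 in RW (log2 fold change 0.17, 95% interval -0.44 to 0.79, adjusted p = 0.795). The 2 sequences compare as
mtr-miR166a: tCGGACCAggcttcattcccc
mtr-miR166a_R+4: tCGGACCAggcttcattcccctgga
where the longer one ends in 4 added bases. Per 10000 of mtr-miR166a the extended form counted 0.309, 0.311 and 0.529 in DS and 2.44, 4.49 and 1.77 in RW, higher in every RW library than in any DS library, which describes the same values as the call. The 2 other variants with this seed, mtr-miR166a_1ss21CA and mtr-miR166a_2ss20CT21CA, had log2 fold changes of 0.35 and 0.11 and did not pass. The 4 added bases also begin the 3′ adapter of the TruSeq kit, and of the 595 names this 1 alone ends in them. A longer miRNA and a read with a remnant of the adapter cannot be told apart in these values.

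mtr-MIR156e-p3 was lower in RW. It is an arm predicted from a precursor of miR156, the family that silences SPL transcription factors and holds a plant in its juvenile phase. It stood at 248, 234 and 466 in DS and at 62.6, 26.6 and 97.5 in RW, where all 3 values were below those of DS (mean 316 ± 130.1 and 62.2 ± 35.4, SD, n = 3; log2 fold change -2.43 ± 0.49 (SE), adjusted p = 0.0199). CK, with 95, 105 and 66.9, overlapped RW and lay below DS. The call held in 17 of 25 alternative settings, with an adjusted p up to 0.0919 in the others. None of the other miR156 members passed. The guide mtr-miR156b-5p went from 2213, 1640.4 and 2329 to 978, 913 and 1502, with no overlap (log2 fold change -0.88, adjusted p = 0.145), and gma-miR156b_L+1R-1 from 249, 453 and 177 to 93, 141 and 98.7 (log2 fold change -1.31, adjusted p = 0.234). On the star side, mtr-miR156c-3p had a log2 fold change of -0.95 (adjusted p = 0.214) and mtr-miR156g-3p one of 1.04 (adjusted p = 0.281), of opposite sign. The family sum was 5694, 5263 and 7596 in DS and 3370.3, 3235 and 4607 in RW, without overlap, and did not pass (log2 fold change -0.73, adjusted p = 0.214).

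mtr-miR5559-5p, a legume miRNA, was lower in RW. It stood at 405, 1110.4 and 916 in DS and at 173, 208 and 87.6 in RW (mean 810.5 ± 364 and 156.2 ± 61.9, SD, n = 3), a ratio of DS to RW of 5.19 (log2 fold change -2.34 ± 0.48 (SE), adjusted p = 0.0213). CK held 1716, 925 and 2324, above every RW library and overlapping DS. DS replicate 1 was the lowest of its group, and the other arm, mtr-miR5559-3p, was listed at 0 in all 6 libraries. The call held in 16 of 25 alternative settings, with an adjusted p up to 0.107 in the others. It was 0.0609 with the replicate number as a block.

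PC-3p-54_81480 was the most abundant miRNA that passed, lower in RW, and it passed in 17 of 25 alternative settings (adjusted p up to 0.165). It stood at 11410.3, 9458 and 14473 in DS and at 4649, 2991 and 5852 in RW, and all RW libraries were below all DS libraries and below CK, with 10419.9, 10344 and 10234 (ratio of DS to RW 2.62, log2 fold change -1.42 ± 0.27 (SE), adjusted p = 0.0175). The summed share of the 63 PC-named miRNAs, which includes it, was 1.12, 0.796 and 1.26% of the listed values in DS replicates 1 to 3 and 0.507, 0.337 and 0.653% in RW, and PC-3p-54_81480 alone made up 0.851% in DS and 0.333% in RW, most of the difference. Of the 34 tested PC-named miRNAs, 21 had a positive and 12 a negative log2 fold change, with a median of 0.49 (0.25 with low values raised). PC-5p-400_9674 and PC-5p-35690_161 were assigned to the same assembled transcript as PC-3p-54_81480, and both can pair with PC-3p-54_81480 over a stretch of Watson-Crick bases. The 3 sequences are shown because they were assigned to 1 transcript and both PC-5p sequences pair with PC-3p-54_81480.
PC-3p-54_81480: cGGGATCGgagattagagaat
PC-5p-400_9674: tCTTTAATctccgatcccaaa
PC-5p-35690_161: tCTAATCTccgatcccgaatt
PC-5p-400_9674 pairs over 14 bases and went from 1785, 1491 and 2485 to 943, 1488 and 1317 (log2 fold change -0.61, adjusted p = 0.352). PC-5p-35690_161 pairs over 17 bases, the longest stretch of any listed name, and went from 0, 15.2 and 16.1 to 16.6, 21.3 and 16 (log2 fold change 1.53, adjusted p = 0.484). The ratio of PC-3p-54_81480 to PC-5p-400_9674 was 6.39, 6.34 and 5.82 in DS and 4.93, 2.01 and 4.44 in RW, where replicate 2 was the lowest. CK, at 3.83, 4.47 and 6.19, overlapped both groups, and since PC-3p-54_81480 was singled out for being lower, its ratio to a miRNA that did not pass is a description only.

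**Figure D2:**
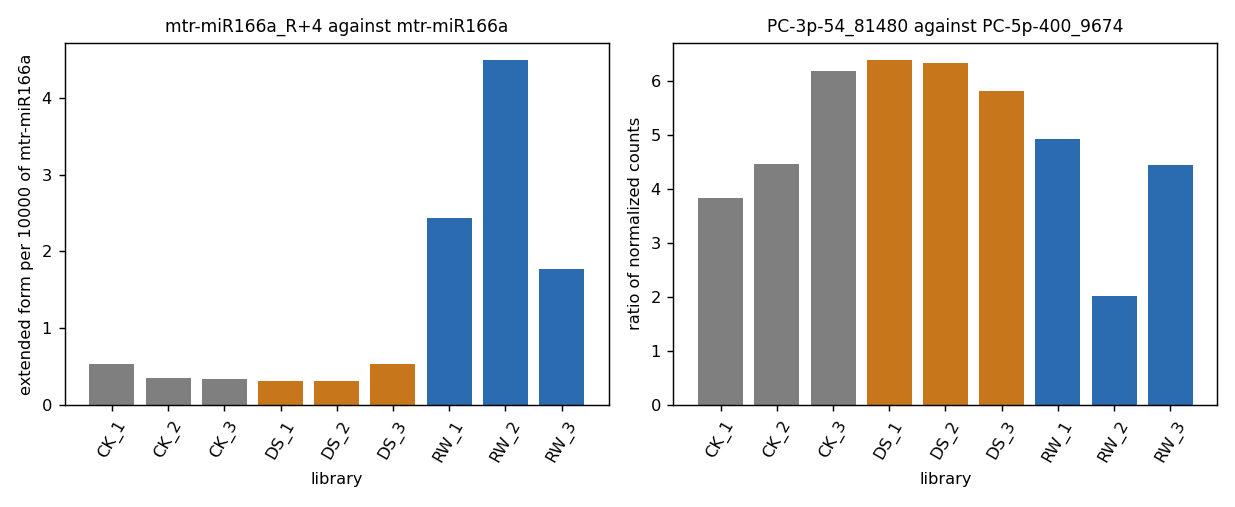
Left, mtr-miR166a_R+4 per 10000 of mtr-miR166a; right, the ratio of PC-3p-54_81480 to PC-5p-400_9674, 1 bar per library (axes linear from 0). The 3 RW bars stand above all others on the left, from 1.77 to 4.49, and on the right the RW bars are below the DS bars while CK overlaps both.

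The other 4 miRNAs higher in RW were listed at 0 in all DS libraries, so no fold is given. They met the filter for testing through RW and CK values alone. Their lack of spread in DS is that of unlisted values, in the shallower libraries. The fit took it as measured, so their adjusted p-values are to be read with that limit. gma-MIR10405a-p5_2ss8AT21TG, of 24 nt, stood at 20.3, 17.1 and 14.8 in RW and at 7.83, 10.5 and 7.04 in CK (adjusted p = 0.0133). mtr-MIR2610a-p3_1ss9AC stood at 9.2, 12.8 and 12.3 in RW and 6.78, 11.2 and 4.53 in CK (adjusted p = 0.0175). mtr-MIR5230-p3_2ss7TG19AG stood at 9.2, 12.8 and 9.87 in RW and 6.26, 11.2 and 8.55 in CK (adjusted p = 0.0175). These 3 were low in every library, at most 20.3, and CK overlapped RW for the last pair. mtr-miR5754 reached more, 14.7, 150.3 and 50.6 in RW and 11, 8.06 and 0 in CK (adjusted p = 0.0175), with RW replicate 2 far above the others. With low values raised to the highest of the libraries' smallest values, 4.21, mtr-MIR2610a-p3_1ss9AC and mtr-MIR5230-p3_2ss7TG19AG no longer passed (adjusted p = 0.228 and 0.235), and the other 6 did. Raising gives all DS libraries the same value for these 4, so it cannot test the effect of the missing spread. The last 8 bases of gma-MIR10405a-p5_2ss8AT21TG (GAGGGAGT, sought on both strands) are in 25 names, 19 of the 543 sequences (3.50%), of 6 name groups that include miR5205 and miR5281. Of the 9 of these that were tested, 7 had a positive log2 fold change and this 1 passed. The bases were taken from the called miRNA, so its own rise is counted in. Of the 25 names, 24 are of 24 nt, a length at which 96 of 134 tested names were positive, so the count is a description only.

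The change and its error both depended on the level. The 30 miRNAs with a mean over 1000 had a median log2 fold change of -0.21, and the 179 tested below 20 had one of 0.65, which was 0.18 with low values raised. The 186 miRNAs above 0 in all 6 libraries had a median of -0.01.

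**Figure D3:**
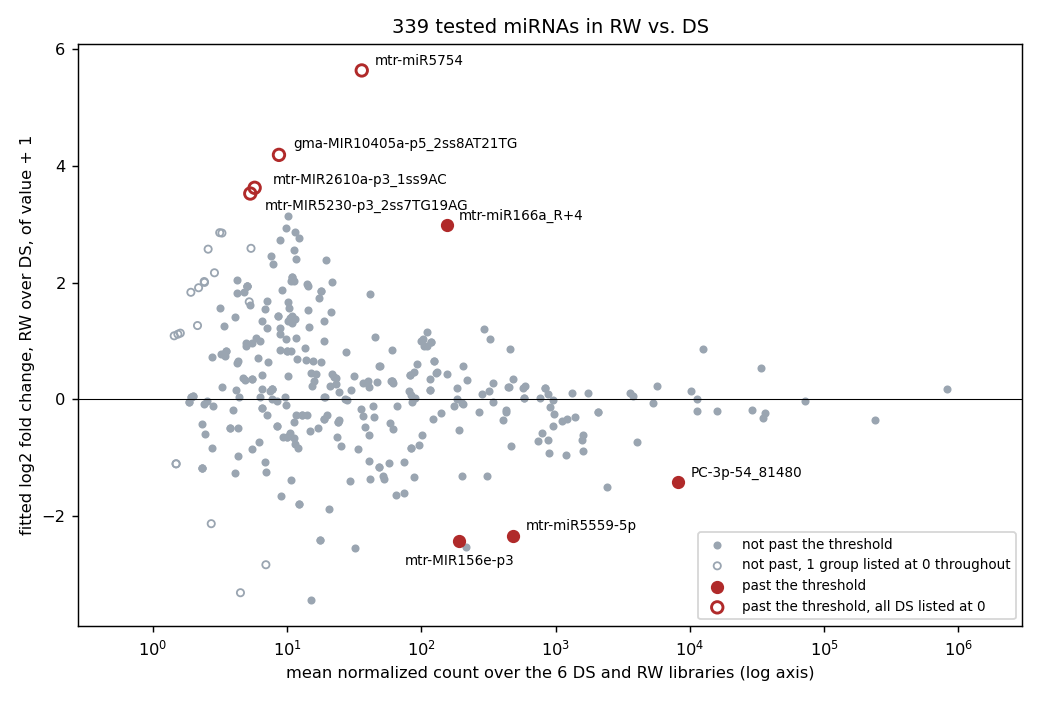
Fitted log2 fold change of RW over DS, of value + 1 (vertical axis), against the mean normalized count over the 6 libraries (horizontal log axis) for the 339 tested miRNAs. Red points passed; open circles were listed at 0 in all libraries of 1 group, where the height depends on the added 1. The spread widens below a mean of 20, where 3 of the 5 higher calls lie.

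More miRNAs were listed in RW than in DS. The number of names above 0 was 305, 290 and 283 in DS and 376, 367 and 347 in RW (mean 292.7 ± 11.2 and 363 ± 14.8, SD, n = 3), higher in 3 of 3 RW libraries (2-sided exact permutation test, p = 0.1, the smallest that 3 against 3 allow). Counting only values at or above 4.21, which every library could list, left 284, 290 and 282 in DS and 338, 328 and 313 in RW, still without overlap (exact permutation test, p = 0.1). Of these names, those of 24 nt numbered 103, 113 and 110 in DS and 141, 131 and 124 in RW, and those of 21 nt 109, 104 and 101 in DS and 112, 107 and 109 in RW, which overlapped. CK had 343, 317 and 327 names at this level. A common level evens out the listing threshold of a library but not the chance of a low count, and the part of depth in this difference was not tested.

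**Figure D4:**
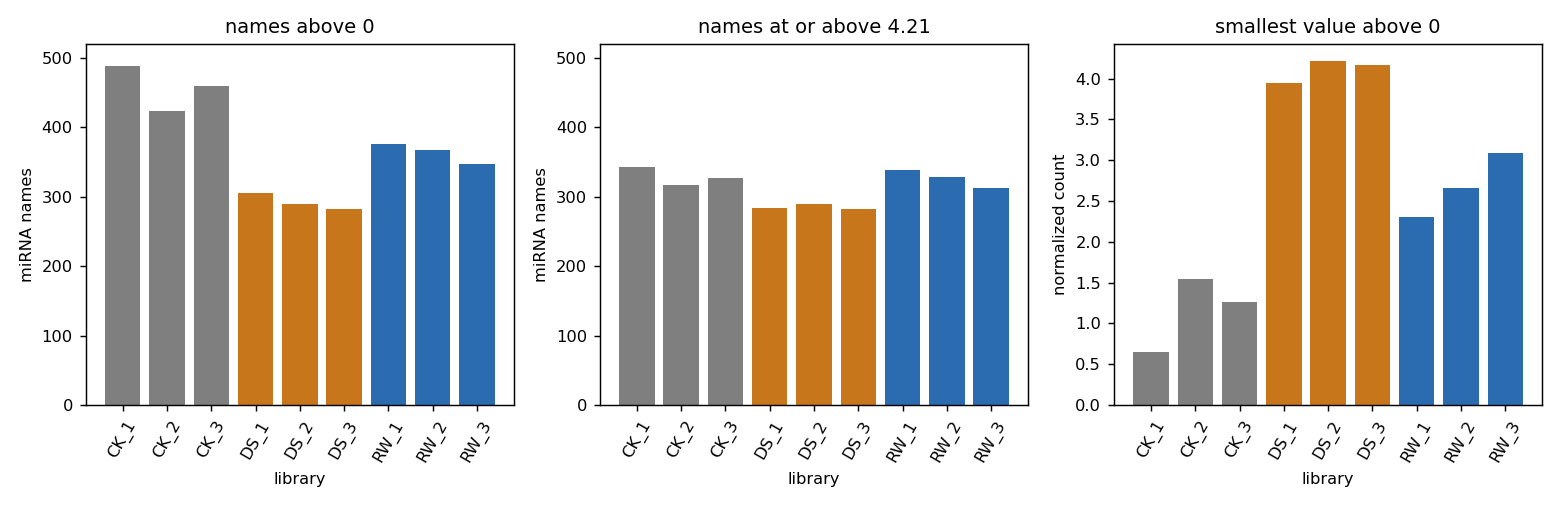
From left, names with a value above 0, names at or above 4.21, and the smallest value above 0 (normalized count), 1 bar per library, axes from 0. The RW bars are above the DS bars in both counts, and the smallest values are higher in DS (3.94 to 4.21) than in RW (2.30 to 3.09).

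miRNAs of 24 nt were tested for 134 of their 276 names. Of these, 1 passed, higher in RW (1.47% of all tested passed in this direction). At an unadjusted p under 0.05, 14 of the 134 were higher and 2 lower, against 29 (8.55%) and 19 (5.6%) of all 339 tested miRNAs. The median log2 fold change was 0.42 against 0.16 over all (with low values raised, 0.22 against 0.06). The 179 tested with a mean under 20, of any length, leaned the same way: 17 were higher and 5 lower, with a median of 0.65 (0.18 with low values raised). The median SE was 0.94 for 24 nt, 1.01 for that class and 0.67 over all. The parts of length, level and the shallower DS libraries in this lean were not tested. Among the 121 of 21 nt, 1 passed higher and 2 lower, with a median of 0.00, and among the 38 of 22 nt 2 passed higher and 1 lower, with a median of -0.10. The share of 24 nt was 0.242, 0.219 and 0.251% of the listed values in DS replicates 1 to 3 and 0.325, 0.23 and 0.296% in RW, and overlapped (exact permutation test, p = 0.3). That of 21 nt was 89.4, 88.4 and 89.6% of the listed values in DS replicates 1 to 3 and 89.5, 87.9 and 88.5% in RW (exact permutation test, p = 0.6).

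The other pathways were followed through lists of families, described by counts and medians. With upper-quartile scaling, where the median over all miRNAs was 0.76, the log2 fold changes of the lists are to be read against that shift. Copper-responsive families silence copper proteins such as plantacyanin, laccases and Cu/Zn superoxide dismutase when copper is scarce. Of 16 names 8 were tested and none passed (0 called in limma, 1 higher and 1 lower at an unadjusted p under 0.05), with a median log2 fold change of -0.66 (-0.43 with low values raised). Their summed share was 0.171, 0.265 and 0.358% of the listed values in DS replicates 1 to 3 and 0.161, 0.0469 and 0.0975% in RW, lower in every RW library (exact permutation test, p = 0.1). Most of it was mtr-miR408-3p, which silences plantacyanin and laccase mRNAs and went from 1968, 3860.4 and 4784 to 1908, 715 and 1167, without overlap, although RW replicate 1 was close to DS replicate 1 (log2 fold change -1.50, 95% interval -2.44 to -0.57, adjusted p = 0.122). Of 25 alternative settings it passed in 1 alone, without DS replicate 1 (adjusted p = 0.0408), and its adjusted p reached 0.355 in others. bra-MIR408-p5, a predicted opposite arm, was listed at 0 in DS and, in RW, at 7.36, 5.33 and 6.17 (adjusted p = 0.0995). The limit given above for miRNAs at 0 in all DS libraries holds for it. The miR398 guides mtr-miR398b (139, 37.1 and 141 in DS, 89.3, 7.46 and 34.6 in RW, overlapping) and mtr-miR398a-3p_L+1R-1 (58.3, 55.6 and 91 in DS, 52.5, 43.7 and 7.4 in RW) did not pass, and CK held 1071, 841 and 696 of the second, above all 6. mtr-miR2119 was listed at 0 in all 6 libraries and at 42.8, 26 and 22.6 in CK.

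The miRNA-pathway families feed back on the pathway itself: miR168 silences AGO1 and miR162 silences DCL1. All 5 tested members had a negative log2 fold change, although mtr-MIR168c-p3 and ptc-miR162a_R+1 turned positive with upper-quartile scaling, and none passed (0 called in limma, 1 at an unadjusted p under 0.05), with a median of -0.70 (-0.31 with low values raised). mtr-miR168b went from 4563, 5649.9 and 4973 to 3234, 2803 and 3142, without overlap (log2 fold change -0.72, adjusted p = 0.269). mtr-miR162 went from 3573, 1447 and 1098 to 1531, 935 and 918 and overlapped. The log2 fold changes of mtr-MIR168c-p3 and ptc-miR162a_R+1 were -0.21 and -0.27. The list's share was 0.662, 0.507 and 0.478% of the listed values in DS replicates 1 to 3 and 0.399, 0.244 and 0.351% in RW, lower in every RW library (exact permutation test, p = 0.1).

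Phosphate-responsive families include miR399, which silences the ubiquitin conjugase PHO2, and miR2111, which silences F-box proteins and in Medicago and Lotus carries a signal from shoot to root that permits nodulation. None of 9 tested members passed (0 called in limma, 0 higher and 2 lower at an unadjusted p under 0.05), with a median of -0.49. The 2 tested miR399 members had positive log2 fold changes. mtr-miR399l stood at 0, 5.06 and 0 in DS and 19.3, 7.46 and 0 in RW (adjusted p = 0.578), and mtr-miR399q at 0, 0 and 0 and 8.28, 0 and 6.17 (adjusted p = 0.556), and both overlapped. The 7 miR2111 members had negative log2 fold changes, although mtr-miR2111a-5p and mtr-miR2111l turned positive with upper-quartile scaling. mtr-MIR2111n-p3 went from 131, 121 and 109 to 87.4, 20.3 and 59.2 and mtr-miR2111a-5p_R-3 from 31.5, 29.5 and 69.6 to 12, 20.8 and 12.3, both without overlap. The abundant mtr-miR2111a-5p, mtr-miR2111l and vvi-miR2111-5p had log2 fold changes of -0.37, -0.45 and -0.80, and their groups overlapped. The single sulfate-responsive name, mdm-MIR395k-p5_2ss12TC20TC, was listed in 1 DS and 2 RW libraries.

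Families that silence NBS-LRR genes of disease resistance had 12 tested members and no call (0 called in limma, 1 higher and 0 lower at an unadjusted p under 0.05), with a median of 0.15. Their share was 8.21, 9.15 and 6.31% of the listed values in DS replicates 1 to 3 and 6.92, 8.81 and 8% in RW. mtr-miR482-3p_L-1R+2 stood at 33504, 24307 and 23218 in DS and 28099.9, 53744 and 38527 in RW, overlapping (log2 fold change 0.54, adjusted p = 0.375). mtr-miR2118, nta-miR482a, mtr-MIR1510a-p5_1ss21AT and mtr-miR1507-3p had log2 fold changes of -0.24, -0.18, -0.20 and -0.13. Of the 22 tested members of legume families, mtr-miR5559-5p alone passed, 16 were negative and 5 positive, with a median of -0.35; mtr-miR5213-5p stood at 1480.5, 1869 and 1237 in DS and 1457, 966 and 1294 in RW.

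Auxin-related families silence auxin response factors (miR160, miR167) and receptors (miR393) or set off tasiRNAs against them (miR390). None of 21 tested passed (0 called in limma, 1 higher and 0 lower at an unadjusted p under 0.05), with a median of 0.03. The abundant gma-miR167c_R+1 stood at 11816, 10393 and 11294 in DS and 11655, 9926 and 12236 in RW, with a 95% interval of its log2 fold change of -0.47 to 0.49. lja-miR167a_R+1, lja-miR390a-5p and mtr-miR160a had log2 fold changes of 0.05, -0.00 and 0.20.

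Families that silence transcription factors of development had 62 tested members, of which mtr-miR166a_R+4 passed higher and mtr-MIR156e-p3 lower, with a median of 0.09. Over all tested miRNAs 1.47% passed higher and 0.885% lower. At an unadjusted p under 0.05, 6 of the 62 were higher and 8 lower, against 8.55% and 5.6% of all tested. Their share was 85.2, 85.2 and 85.9% of the listed values in DS replicates 1 to 3 and 86.5, 85.9 and 85.4% in RW, overlapping (exact permutation test, p = 0.2). mtr-miR159a, which silences GAMYB factors, stood at 353231, 256830.0 and 201372 in DS and 240848, 173608 and 211351 in RW (log2 fold change -0.35, 95% interval -0.94 to 0.24). mtr-miR396a-5p and mtr-miR396b-5p, which silence growth-regulating factors, had log2 fold changes of -0.03 and -0.32, and mtr-miR164a, which silences NAC factors, one of -0.19. Members differed without passing in both directions, and 2 of the higher ones follow. nta-miR172c_R+1, of the family that silences AP2 factors of flowering, was listed at 0 in DS and, in RW, at 7.36, 8.53 and 3.7 (adjusted p = 0.0995). The limit given for miRNAs at 0 in all DS libraries holds for it too. gma-miR171j-5p, named after its values were seen, belongs to the family that silences GRAS factors and went from 22.1, 25.3 and 8.93 to 74.6, 46.9 and 70.3, without overlap (log2 fold change 1.81, adjusted p = 0.0995).

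The remaining large differences without overlap did not pass either. PC-5p-81557_56 went from 7.88, 0 and 0 to 18.4, 12.8 and 22.2 (adjusted p = 0.0995), mtr-miR5284a_1ss9AT from 9.46, 0 and 0 to 23, 13.9 and 12.3 (adjusted p = 0.143) and PC-3p-61527_82 from 0, 0 and 10.7 to 14.7, 12.8 and 14.8 (adjusted p = 0.215). In the other direction, PC-3p-102950_40 was listed at 7.88, 10.1 and 8.93 in DS and at 0 in RW (adjusted p = 0.122), gma-miR4415a-3p_1ss18AT went from 44.1, 69.1 and 33.9 to 27.6, 18.1 and 0 and mtr-MIR5267c-p5 from 85.1, 92.7 and 44.6 to 42.3, 11.7 and 38.3. In all, 31 of the 339 tested miRNAs had RW above DS without overlap (9.14%) and 21 had RW below DS (6.19%). With an unadjusted p under 0.05 as well, there were 21 above (6.19%) and 15 below (4.42%).

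**Figure D5:**
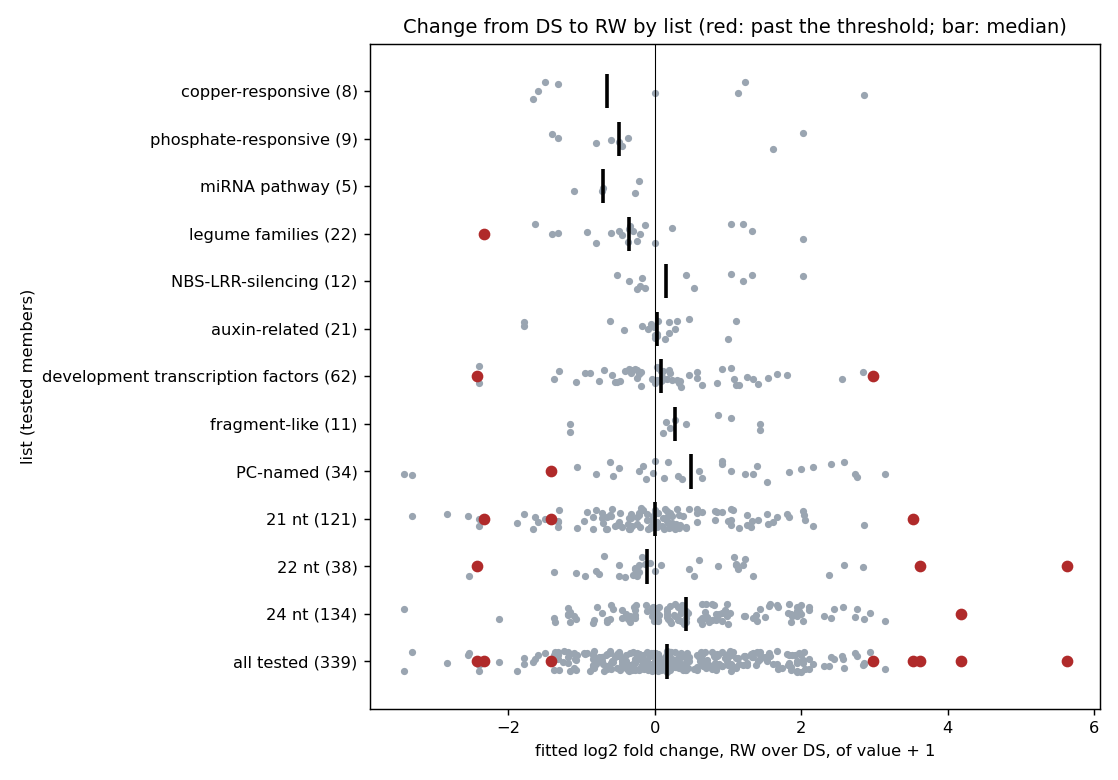
Fitted log2 fold change of RW over DS, of value + 1 (horizontal axis), for the tested members of each list, with their number in brackets. Each point is 1 miRNA, red points passed, and the black bar is the median, which runs from -0.70 for the miRNA-pathway list to 0.49 for PC-named miRNAs, against 0.16 for all tested.

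Sequences of the fragment-like families resemble pieces of rRNA or tRNA and were followed as a sign of RNA quality. None of 11 passed (0 called in limma, 2 higher and 0 lower at an unadjusted p under 0.05), with a median of 0.28. Their share was 1.27, 1.1 and 2.32% of the listed values in DS replicates 1 to 3 and 1.86, 2.38 and 2.01% in RW, overlapping (exact permutation test, p = 0.3), and 0.486, 0.593 and 0.628% in CK. gma-miR6300_R+5 stood at 162.4, 310.0 and 180.3 in DS and 382, 489 and 428 in RW, without overlap (adjusted p = 0.214), and gma-MIR5368-p3_2ss1AT18CA at 6354, 7059 and 12992 and 10753, 25276 and 12998 (adjusted p = 0.281). With this list left out and the rest scaled to their total, 6 of the 8 calls held. mtr-MIR156e-p3 and PC-3p-54_81480 then had adjusted p-values of 0.0552 and 0.0705. With the list kept and the values scaled to the table's total, the same 2 had 0.0536 and 0.0680. The part of the list itself was not tested.

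Family sums, in which each sequence of a family counts once, gave 4 calls among 100 families (4%): miR10405, miR2610 and miR5754 higher in RW (adjusted p = 0.00147, 0.00565 and 0.0187) and miR5559 lower (adjusted p = 0.0309). Each of these 4 sums rests on 1 tested miRNA, already described, and is no second line of evidence. The 3 higher sums were 0 in all DS libraries, so the limit given for those miRNAs holds for their adjusted p-values too. The next families by p were miR408, with a sum of 1991, 3860.4 and 4819.6 in DS and 1949.5, 737 and 1179.7 in RW (log2 fold change -1.48, adjusted p = 0.182), and miR156. The sums of miR168 and miR398 had log2 fold changes of -0.68 and -1.17 (adjusted p = 0.298 and 0.303), and miR2586, a family of 29 names, stood at 103, 55.6 and 67.8 in DS and 142, 167.3 and 120.3 in RW (adjusted p = 0.298).

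The 8 calls were also set beside the control leaves, which share the fit. Of the 5 called higher, RW overlapped CK for mtr-MIR2610a-p3_1ss9AC and mtr-MIR5230-p3_2ss7TG19AG and lay above CK for the other 3. For mtr-miR5754 the gap was small, with 14.7 in RW replicate 1 and 11 in CK replicate 1. Of the 3 called lower, RW overlapped CK for mtr-MIR156e-p3 and lay below CK for mtr-miR5559-5p and PC-3p-54_81480. Of the 29 higher at an unadjusted p under 0.05, RW overlapped CK for 20, lay above for 7 and below for 2. Of the 19 lower, it overlapped for 14, lay above for 0 and below for 5. The shares over all tested miRNAs were not counted, so these positions are a description only.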

How the data were processed

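Leaf small RNA of 9 samples was prepared from 5 µg of total RNA (TruSeq Small RNA, HiSeq 2500). The authors removed adapters, junk, common RNA families and repeats with ACGT101-miR (its version was not stated), kept 18 to 25 nt and matched to miRBase 22.0 and assembled transcripts. The deposited unit is a signal: per library, the authors scaled read counts by a factor, chosen in a way not given in the sources used here. Listed values hold at least about 5 reads in every library but CK replicate 1, where the smallest was near 2.5, so no limit for a count of 0 is given. Although 98.1 to 99.3% of the values of a library were whole multiples of 1 step (within 0.01 of a step), the unit was kept as a signal. Values under about 5 steps are listed at 0 in every library but CK replicate 1, so the planned count models were not run.

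The table's 667 lines hold 595 names and 543 sequences; repeated lines hold equal values. Names at 5 or more in at least 3 of 9 libraries were tested on log2 (value + 1), where the fitted change of a low miRNA depends on the added 1, by limma 3.58.1 (R 4.3.3, 2-sided, mean-variance trend, 1 fit of 3 groups, contrast RW - DS, Benjamini-Hochberg over all 339, threshold 0.05). Every adjusted p is from this test. Shares and name counts had 2-sided exact permutation tests (Python 3.11.15, scipy 1.17.1, pandas 2.3.3, matplotlib 3.10.9). The fit was tested on simulated data with normal noise. These had no lowest listed value and no difference in depth between groups, so they do not cover the calls at 0 in DS.

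Members and lists, by family number, were chosen with earlier results of these data known. Named were the calls, the 10 largest rises and 10 largest falls without overlap at p under 0.05, up to 4 members per list and the 10 most abundant; others described as variants or opposite arms of these, and gma-miR171j-5p, gma-miR6300_R+5, mtr-miR399l and mtr-miR399q, were added after their values were seen. One miRNA that this rule names is not reported here. Alternatives were 4 scalings, pseudocounts of 0.1, 0.5 and 5, other filters, a replicate block, fits without the trend or of 6 libraries, merged sequences, left-out libraries and the methods' test.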

Additional observations from a re-analysis of the deposited data

How the results depend on the processing

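The 8 calls kept their direction in every fit that tested them. This was largely fixed in advance, since RW and DS did not overlap and leaving out a library could not turn a sign. For the 4 listed at 0 in all DS libraries no scaling, pseudocount or raised level could either. Of the 8, 4 were not tested with a minimum of 20 or with only miRNAs above 0 in all 6 libraries (4 calls each). The count of calls was 0 with only the DS and RW libraries, 16 with upper-quartile scaling and 21 by the methods' test, and 0 to 14 with 1 library left out. The other settings gave 6 to 11 calls, not always with the same miRNAs: 4 of the 8 passed without the mean-variance trend. Family sums gave 4 calls, 0 with a minimum of 20 (10 at an unadjusted p under 0.05) and 0 with only those above 0 in all 6 libraries (10), 2 with a replicate block, and 2 to 4 with 1 library left out. The replicate number paired nothing: deviations of same-numbered DS and RW libraries correlated at 0.0436, 0.0542 and 0.0579, and the other pairs at -0.137 to 0.0803. As a block it left 7 miRNA calls.

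Upper-quartile scaling, whose shift is given above, turned 21 named miRNAs that had not passed from negative to positive: PC-3p-15383_407 0.53, PC-3p-905_4408 0.43, PC-5p-400_9674 0.030, ath-miR8175_L+4 0.60, lja-miR1511-3p_R-3 0.58, lja-miR390a-5p 0.64, mtr-MIR1510a-p5_1ss21AT 0.44, mtr-MIR164b-p3 0.40, mtr-MIR168c-p3 0.43, mtr-miR1507-3p 0.52, mtr-miR159a 0.29, mtr-miR164a 0.45, mtr-miR166a_L+1_1 0.43, mtr-miR2111a-5p 0.27, mtr-miR2111l 0.19, mtr-miR2118 0.41, mtr-miR396a-5p 0.61, mtr-miR396b-5p 0.32, mtr-miR5213-5p 0.34, nta-miR482a 0.46 and ptc-miR162a_R+1 0.34. Other settings turned values near 0: median-of-ratios scaling mtr-miR396a-5p to 0.011 and lja-miR390a-5p to 0.040, trimmed-mean scaling lja-miR390a-5p to 0.009, the table's total gma-miR167c_R+1 to -0.0097, leaving out the fragment-like list gma-miR167c_R+1 to -0.0021, and raised low values mdm-MIR395k-p5_2ss12TC20TC to -0.0088. With 1 library left out, 22 named miRNAs that had not passed turned sign at least once, with these ranges on the log2 scale: PC-3p-15383_407 -0.31 to 0.079, PC-3p-905_4408 -0.51 to 0.030, ath-miR8175_L+4 -0.51 to 0.43, bna-miR166a_L+2 -0.26 to 0.47, gma-MIR5368-p5_1ss1TC -0.080 to 0.50, gma-miR167c_R+1 -0.052 to 0.099, lja-miR1511-3p_R-3 -0.31 to 0.078, lja-miR167a_R+1 -0.13 to 0.26, lja-miR390a-5p -0.22 to 0.27, mtr-MIR1510a-p5_1ss21AT -0.40 to 0.082, mtr-MIR164b-p3 -0.57 to 0.052, mtr-MIR168c-p3 -0.48 to 0.055, mtr-miR160a -0.0096 to 0.46, mtr-miR164a -0.37 to 0.019, mtr-miR166a -0.047 to 0.29, mtr-miR166a_L+1_1 -0.51 to 0.034, mtr-miR2118 -0.69 to 0.15, mtr-miR396a-5p -0.14 to 0.061, nta-miR482a -0.34 to 0.041, peu-MIR2916-p3_2ss5AG20TG -0.12 to 0.43, ptc-miR162a_R+1 -0.55 to 0.18 and ptc-miR6478_R+2_1ss21GA -0.18 to 0.60. The difference in the share of 22 nt turned to -0.0487 percentage points without DS replicate 3, and ranged up to 1.04.

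Upper-quartile scaling took the quartile over each library's values above 0, which numbered 283 to 305 in DS and 347 to 376 in RW. Median-of-ratios and trimmed-mean scaling used miRNAs above 0 in all 9 libraries, and all 8 calls passed with each. The cause of these changes was not tested. Count-based fits with edgeR and DESeq2, planned for a table of read counts, were not run. The median SE of a log2 fold change was 0.289 above a mean of 1000 and 1.01 below 20, so low miRNAs were measured least precisely.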
